A study of Mus musculus with 21 samples.

Results

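The cytosolic ribosomal protein genes were taken from the count tables by annotation alone: protein-coding mouse genes of GRCm38 with a symbol that begins with Rpl or Rps and a digit, together with Rpsa, Rplp0, Rplp1 and Rplp2, and without symbols that hold -ps and without the Rps6k kinases. The rule found 86 genes among 45706, and 85 of them passed the filter on low counts that left 19555 genes for testing. The exception was Rpl10l, the autosomal relative of Rpl10, with 0 counts in all libraries. The rule also takes in Rps19bp1, which encodes a protein that binds ribosomal protein S19 and is not itself part of the ribosome. It leaves out ribosomal protein genes with other symbols, of which Fau and Rack1 are described with the related lists.

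RNA-seq counts came from 21 mouse libraries, 7 each of bone marrow (BM) LSK cells (lineage-negative, Sca1+, cKit+ stem and progenitor cells), BM CD11b+ cells and spleen CD11b+ cells (myeloid cells enriched on magnetic columns). In each cell type, 2 libraries were labelled MxCre, 2 were labelled Ptpn11D61Y/+ and 3 came from terminally ill (stage 3, S3) MxCre;Ptpn11D61Y/+ mice. All mice received poly I:C, which switches on the Mx1 promoter and with it the Cre recombinase. Ptpn11D61Y/+ mice carry the mutant Ptpn11 allele behind a Neo-Stop cassette, without Cre, and so express only the wild-type allele. In MxCre;Ptpn11D61Y/+ mice Cre removes the cassette, and the SHP2 phosphatase is made with the D61Y change in Mx1-responsive cells, not in blood cells alone. The S3 libraries carry mouse numbers in their labels: 540, 815 and 768 for LSK, and 540, 815 and 640 for both CD11b+ fractions.

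Total counts ran from 34992610 to 104509425 per library with a median of 69421661, and 80 of the 86 members had at least 1000 counts in every library. The labelled cell types were checked against their markers. Kit, the stem cell factor receptor, had 404 to 764 CPM (counts scaled to the library total) in LSK libraries and 3.33 to 71.6 CPM in the CD11b+ libraries. Ly6a, which encodes Sca1, did not separate them. It had 57 to 107 CPM in LSK, 24.7 to 179 CPM in BM and 3.36 to 254 CPM in spleen CD11b+ libraries. Itgam, which encodes CD11b, had 45.3 to 168 CPM in LSK libraries, 132 to 1120 CPM in BM and 150 to 1760 CPM in spleen CD11b+ libraries, so that the LSK and CD11b+ ranges overlapped. LSK libraries also held B cell transcripts, with 7920 to 61400 CPM summed over 10 markers, led by Ighm.

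Several libraries stood apart. In BM MxCre 1, spleen MxCre 1 and BM S3 815, 14885, 14641 and 14761 genes had a count, against 17493 to 24220 in the other 18. Globin genes took 15.8% of the counts in BM MxCre 2, and 1.68% to 12.5% in the other BM CD11b+ libraries. Xist, made by female cells, and the Y-linked Eif2s3y were both present in BM MxCre 2 (2834 and 1472 counts), BM S3 540 (2780 and 691) and spleen S3 540 (712 and 2084). LSK S3 540 had 1 Xist count and 3829 Eif2s3y counts. Spleen Ptpn11D61Y/+ 1 had 4753 Xist counts and no Y-linked count, whereas LSK and BM Ptpn11D61Y/+ 1 had Y-linked counts and at most 17 for Xist. Libraries with the same number therefore need not come from a single mouse.

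Ribosomal proteins are the protein parts of the small (40S, Rps genes) and large (60S, Rpl genes) ribosomal subunits and are needed in equal numbers, with the stalk proteins Rplp1 and Rplp2 as the exception. Their mRNAs begin with a run of pyrimidines, the 5′ terminal oligopyrimidine (TOP) tract, through which mTOR and LARP1 control their translation. MYC raises ribosome production in growing blood cells, and free Rpl5 and Rpl11 bind MDM2 and thereby stabilise p53 when assembly fails. Reduced dosage of single members such as Rps19 is known to impair red cell formation.

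Start sites were drawn from RefSeq windows that run from 250 bases before to 50 bases after each annotated start (GRCm38.p6), which matched 66 of the 86 genes. In 24 of the 66 (36.4%), a run of 8 or more C or T touched the 5 bases on either side of the start, against 11.4% of all 27025 genes with a window. The letters CCGGAAG, on either strand, occurred in 26 (39.4%) against 9.93%, and CTTTCC on the gene's strand in 27 (40.9%) against 16%. TATAAA on the gene's strand occurred in 6 (9.09%) against 9.77%, CACGTG on either strand in 6 (9.09%) against 8.09%, and CCAAT on either strand in 20 (30.3%) against 41.1%. The 30 bases around the start follow for 5 genes whose counts were relatively high in CD11b+ cells (Rps9, Rplp2, Rpl38, Rpl37a, Rpl41), 5 that were relatively low there (Rpl4, Rpl15, Rps6, Rps7, Rpl6), the pair Rps27 and Rps27rt, and Rpl3l. The start is base 16, and capitals mark the longest pyrimidine run that touches the 5 bases on either side of it, or the first of runs of equal length. Capitals are cut at the edge of the 30 bases, so that the run of 14 bases in Rpl4 shows only in part. The marked run need not cover the start itself, and in several genes, Rps7 and Rps27rt among them, it ends before it.
Rps9 (chr7:3704026-3704055, plus strand): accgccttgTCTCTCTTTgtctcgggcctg
Rplp2 (chr7:141447636-141447665, plus strand): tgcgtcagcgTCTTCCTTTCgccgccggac
Rpl38 (chr11:114668565-114668594, plus strand): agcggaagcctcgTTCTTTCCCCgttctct
Rpl37a (chr1:72711245-72711274, plus strand): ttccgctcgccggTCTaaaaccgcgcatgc
Rpl41 (chr10:128549154-128549183, minus strand): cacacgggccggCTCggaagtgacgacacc
Rpl4 (chr9:64173372-64173401, plus strand): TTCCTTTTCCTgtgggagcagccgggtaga
Rpl15 (chr14:18270972-18271001, minus strand): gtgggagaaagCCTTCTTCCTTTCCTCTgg
Rps6 (chr4:86857353-86857382, minus strand): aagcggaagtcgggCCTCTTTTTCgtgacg
Rps7 (chr12:28635939-28635968, minus strand): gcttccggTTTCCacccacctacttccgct
Rpl6 (chr5:121204486-121204515, plus strand): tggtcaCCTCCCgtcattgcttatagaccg
Rps27 (chr3:90213634-90213663, minus strand): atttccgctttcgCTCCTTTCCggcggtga
Rps27rt (chr9:114982725-114982754, minus strand): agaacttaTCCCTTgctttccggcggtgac
Rpl3l (chr17:24727811-24727840, plus strand): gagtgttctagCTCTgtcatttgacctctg
Runs of 8 or more and shorter runs occur among the genes that were high in CD11b+ cells (Rplp2 with 10 bases, Rpl41 with 3) and among those that were low there (Rpl15 with 17 bases, Rps7 with 5). Rpl3l, the muscle relative of Rpl3, has a run of 4 bases.

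The 86 genes together took 4.79% to 15.55% of the counts of a library. In LSK cells the shares were 7.06% and 7.74% in MxCre, 7.59% and 7.46% in Ptpn11D61Y/+, and 9.19% (540), 8.10% (815) and 8.04% (768) in S3 libraries. All 3 S3 LSK libraries thus lay above all 4 control LSK libraries. In BM CD11b+ cells they were 7.27% and 8.93% in MxCre, 5.0% and 4.86% in Ptpn11D61Y/+, and 8.08% (540), 11.33% (815) and 5.95% (640) in S3. In spleen CD11b+ cells they were 10.88% and 6.80% in MxCre, 9.03% and 13.01% in Ptpn11D61Y/+, and 8.86% (540), 15.55% (815) and 4.79% (640) in S3. In both CD11b+ fractions the S3 libraries spanned the MxCre values, with the library numbered 815 the highest and that numbered 640 the lowest of the S3 libraries. Annotated ribosomal protein pseudogenes took at most 0.0843% of any library.

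**Figure D1:**
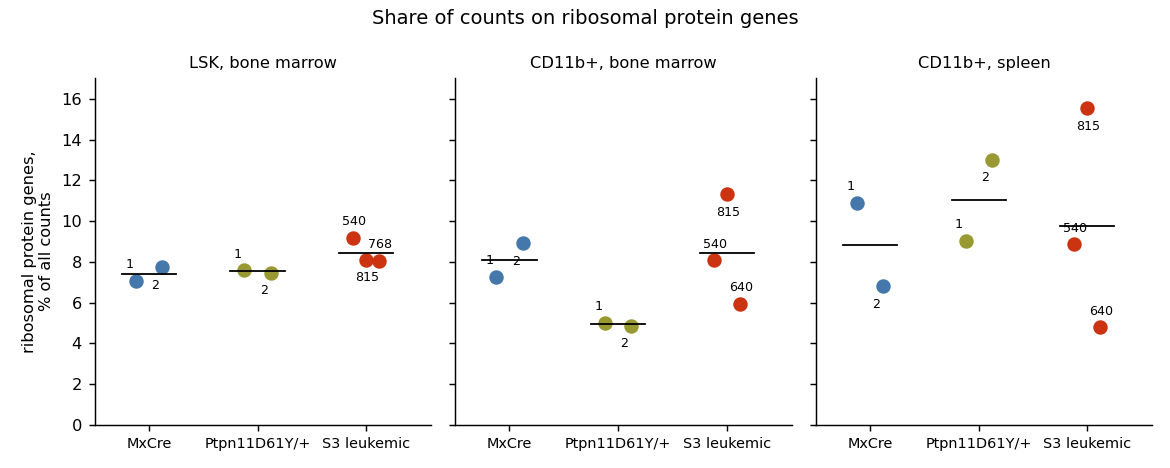
Share of all counts (percent, vertical axis) on the 86 ribosomal protein genes in each library, by cell type and genotype. Points are libraries with their replicate or mouse number, and lines are group means. The S3 LSK libraries lie at 8.04% to 9.19%, above the 4 control LSK libraries, while the S3 CD11b+ libraries spread from 4.79% to 15.55%.

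Levels of different genes were compared per kilobase of mature transcript, as TMM-scaled CPM per kb averaged over all 21 libraries, with the length of the transcript that has the longest coding sequence (among CCDS transcripts where there are any). The 85 genes had a median of 1140 CPM per kb. The 5 highest were the stalk protein Rplp1 (6030 CPM per kb), and the 40S proteins Rps9 (5180), Rps29 (4470) and Rps12 (4140) and the 60S protein Rpl37a (3050). The 5 lowest were Rps27rt (28.3 CPM per kb), Rps19bp1 (19.7), Rpl3l (3.46), Rpl24 (1.30) and Rpl39l (1.10). The order depends on the length used: with the mean length of coding transcripts Rplp2 had 4460 in place of 2830 CPM per kb and ranked 4 in place of 7, Rpl37a ranked 6, and Rpl24 and Rpl39l changed places. The order shifted between cell types: Rpl37a ranked 53 in LSK and 5 in BM CD11b+ cells, and Rplp2 ranked 56 in LSK and 6 in BM CD11b+ cells. The low value of Rpl24, a 60S protein, rests on 17 to 161 counts per library, and another annotated gene, Gm28037, with 0 counts in all libraries, overlaps it on the same strand. How reads in such overlaps were counted is not given in the sources used here. The Rps27rt coding sequence is identical to that of Rps27 over all 252 bases, so that its counts cannot be assigned to it with certainty. Of the 86 members, 79 had at least 1 annotated near-identical copy (95% identity over 80% of the coding sequence), with a median of 5.

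The main question of the study design is how S3 cells differ from MxCre cells of the same type. In LSK cells, 81 of 85 ribosomal protein genes had a positive log2 fold change in S3 mice, none of them called, with a median of 0.26 against 0.01 over all 19555 genes, of which 50.4% were positive. The members' median was 0.17 without S3 540 and also with library size alone. None of the 85 passed the edgeR quasi-likelihood test in the fit over all 21 libraries (smallest adjusted p = 1, none with an unadjusted p under 0.05, against 3.97% of all genes), where 0.0307% of all genes were called. In 63 of the 85 the S3 values all exceeded both MxCre values, as in 29.1% of all genes, and in 3 they all fell short of them, as in 28.9%.

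Rps27l, a relative of Rps27 that p53 is known to induce, had a log2 CPM of 4.86 and 5.02 in MxCre, 5.10 and 4.95 in Ptpn11D61Y/+, and 5.73, 5.51 and 5.62 in S3 LSK libraries 540, 815 and 768. The S3 values lay above all 4 controls, with a log2 fold change over MxCre of 0.68 ± 0.345 (SE, unadjusted p = 0.0651, adjusted p = 1 by edgeR). Rplp0, the stalk base, had 10.62 and 10.73 in MxCre, 10.71 and 10.80 in Ptpn11D61Y/+, and 11.26, 11 and 10.98 in S3 libraries. Rpl5, of the MDM2-binding pair, stood at 9.37 and 9.46 in MxCre, 9.58 and 9.51 in Ptpn11D61Y/+, and 9.91, 9.63 and 9.63 in S3. The S3 values of Rplp0 and Rpl5 lay above all 4 controls, for Rpl5 by a narrow margin. Rps19 had 9.35 and 9.49 in MxCre, 9.35 and 9.44 in Ptpn11D61Y/+, and 9.80, 9.52 and 9.46 in S3, so that its lowest S3 value fell within the control range. Rpl22l1, the relative of Rpl22, had 5.85 and 5.78 in MxCre, 6.18 and 5.99 in Ptpn11D61Y/+, and 5.74, 5.45 and 5.40 in S3.

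A fit on the 5 LSK libraries of this comparison alone, where the spread was not shared with the more variable CD11b+ libraries, called 8 of 85 members higher and 0 lower (9.41% higher), while 13.2% of all 17561 genes tested there were higher and 13.6% lower. The members' share lay below that background in this fit. The 8 were Rpl39l, Rps27l, Rpl36al, Rps27a, Rpl7l1, Rpl39, Rps15a and Rpl10, with log2 fold changes of 0.34 to 0.65 in all but Rpl39l. Rpl39l had 9 and 8 counts in MxCre and 41, 19 and 29 in S3 libraries and passed the filter on low counts through the S3 libraries alone, so that its call adds nothing to the other 7. Rps27l rose by 0.65 ± 0.0867 (SE, adjusted p = 0.00772 by edgeR, 3 of 3 S3 libraries above both MxCre) and Rpl36al, a relative of Rpl36a, by 0.62 ± 0.0845 (adjusted p = 0.00812). Without S3 540, 19 were called higher and 1 lower (22.4% higher, against 16.1% of all genes), so that the share turned above the background. Without S3 815, 4 were higher (4.71% against 11%), and without S3 768, 6 (7.06% against 10.7%). Without either MxCre library none was called, and 3 of all genes were. Rpl10 and Rpl39 lie on the X chromosome, as do Rpl36a and Rps4x, which were not among the 8. Both MxCre LSK libraries and S3 540 held Y-linked counts, while S3 815 and 768 held 39460 and 88850 Xist counts and none for Eif2s3y. S3 540 had the highest log2 CPM of the S3 libraries for Rpl10 (10.09, against 9.89 and 9.87) and Rpl39 (8.54, against 8.24 and 8.21). The part of sex in these values was not tested.

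Of the genes that build ribosomes, none was called between S3 and MxCre LSK cells in the fit over all libraries. All 40 on the list had a positive log2 fold change over MxCre, with a median of 0.49, and whether they differed from the ribosomal protein genes was not tested. In fits on LSK libraries alone that left out 1 S3 library, 31 to 33 of the 40 were called higher, against 10.7% to 16.1% of all genes. Without MxCre 1 or MxCre 2 only 1 MxCre library remained, and the median of the 40 was 0.44 or 0.47, with all 40 positive. In the fit on all LSK libraries of this comparison 33 of the 40 (82.5%) were called higher and 0 lower, against 13.2% and 13.6% of all genes. They included Npm1, which encodes the nucleolar chaperone nucleophosmin (0.65 ± 0.107 SE, adjusted p = 0.011 by edgeR), the snoRNP proteins Nop10 (0.68 ± 0.112, adjusted p = 0.0109) and Nhp2 (0.68 ± 0.08, adjusted p = 0.00643), and Bysl (0.64 ± 0.107, adjusted p = 0.0112). Of 31 translation factors, 16 were called higher and 1, Eif4a2, lower in that fit, led by Eif2s3x and Eif2s1, which encode subunits of initiation factor eIF2, and by Eif4e, the cap-binding protein. Eif2s3x lies on the X chromosome and has the Y-linked relative Eif2s3y.

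Other cell markers moved with this comparison in the same fit. Of 12 mature neutrophil markers, 6 were lower in S3 LSK libraries, of 14 erythroid markers 7 were lower and 1 higher, and of 12 stem and progenitor markers 6 were lower and 1 higher. Of 7 immature neutrophil markers 5 were higher. The erythroid list included Hbb-bs, a globin gene (log2 fold change −5.18), and the immature neutrophil list Mpo, the myeloperoxidase gene (1.5). Of 7 megakaryocyte markers 4 were higher. Over all genes 13.2% were higher and 13.6% lower in this fit. The counts depend on single libraries. Without S3 815, 11 of the 12 mature neutrophil markers were lower (10.4% of all genes). Without MxCre 1 or MxCre 2 only 1 MxCre library remained, and effect sizes alone are given. The median of the mature neutrophil markers was then −1.87 or −2.05, against −1.97 with both. That of the erythroid markers was −1.2 or −1.91, against −1.6, and that of the immature neutrophil markers 1.72 or 1.09, against 1.48. Of 7 NK cell markers 0 were called, but 5 were higher without S3 540. Summed erythroid markers stood at 2590 and 1450 CPM in MxCre and 770, 356 and 533 CPM in S3 LSK libraries, and mature neutrophil markers at 4800 and 4110 CPM against 1110, 2340 and 1580 CPM. In both Ptpn11D61Y/+ LSK libraries the erythroid sum was at most 533 CPM and the mature neutrophil sum at most 1580 CPM. The S3 sums were thus below those of MxCre alone, not below those of both control labels. Their part in the ribosomal protein values was not tested.

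In BM CD11b+ cells no member was called between S3 and MxCre, and none of the 19555 genes was called (0% by edgeR; 3022 genes and 0 members had an unadjusted p under 0.05, and DESeq2 called 495 genes higher and 470 lower, with 0 members). The median log2 fold change was −0.13 over the 85 genes against 0.18 over all genes, with 27 positive. The sign of the members' median depends on scaling: it was 0.13 with library size alone, where the median of all genes was 0.55. In spleen CD11b+ cells no member was called by edgeR, against 4.19% of all genes, and 3 members, all lower, had an unadjusted p under 0.05 (25.3% of all genes). The median was −0.08 against 0.32 over all genes, with 32 positive, and it was 0.26 against 0.77 with library size alone. Relative to the median of all genes the members were thus lower by 0.40 or 0.51 in spleen and by 0.31 or 0.42 in BM under these scalings. The sign also turned when 1 library was left out: in BM the median was 0.12 without MxCre 2 and 0.15 without S3 640, and in spleen 0.12 without MxCre 1 and 0.31 without S3 640. Without S3 815 it fell to −0.44 in BM and −0.71 in spleen. Without the 3 libraries with few detected genes, it was −0.68 in BM and 0.11 in spleen. In spleen 5 of 14 erythroid markers were higher in S3 and 0 lower (median 4.27), and their part in the ribosomal protein values was not tested. The lowest in spleen was Rps27rt, with log2 CPM of 6.06 and 4.36 in MxCre and 2.87, 3.95 and 0.81 in S3 (log2 fold change −2.42 ± 0.691 SE, adjusted p = 0.0572 by edgeR). It passed with DESeq2 and limma-voom, and DESeq2 also called the low-count Rpl24 lower. The identity of Rps27rt to Rps27 applies here too.

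The difference in the S3 effect between cell types was tested as an interaction. None of the 85 members passed for BM CD11b+ against LSK (median difference −0.38, smallest adjusted p = 0.658), spleen CD11b+ against LSK (−0.35, 0.335) or spleen against BM CD11b+ (0.01, 0.647), all by edgeR, where 0%, 0.00511% and 0% of all genes passed. At an unadjusted p under 0.05, 0, 1 and 0 members passed, against 8.12%, 13.4% and 10.7% of all genes.

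The libraries labelled Ptpn11D61Y/+ were compared with MxCre as a check between controls. No member was called in LSK, BM or spleen CD11b+ cells by edgeR, with medians of 0.03, −0.64 and −0.10 (0.0614%, 0% and 5.11% of all genes were called). In BM CD11b+ cells 69 of 85 members were negative, against 57.7% positive over all genes, and 13 had an unadjusted p under 0.05, 11 of them lower (22.6% of all genes had one, a larger share than among the members). In 54 of the 85 both Ptpn11D61Y/+ libraries lay below both MxCre libraries, against 18.8% of all genes. Both BM MxCre libraries stood apart, MxCre 1 with few detected genes and MxCre 2 with the highest globin share and with both Xist and Y-linked counts, and their part in this difference was not tested. Rplp1 shows the pattern, with 12.93 and 12.37 log2 CPM in MxCre and 10.46 and 10.05 in Ptpn11D61Y/+. The S3 libraries had 11.5, 13.05 and 10.03 and overlapped both control labels.

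**Figure D2:**
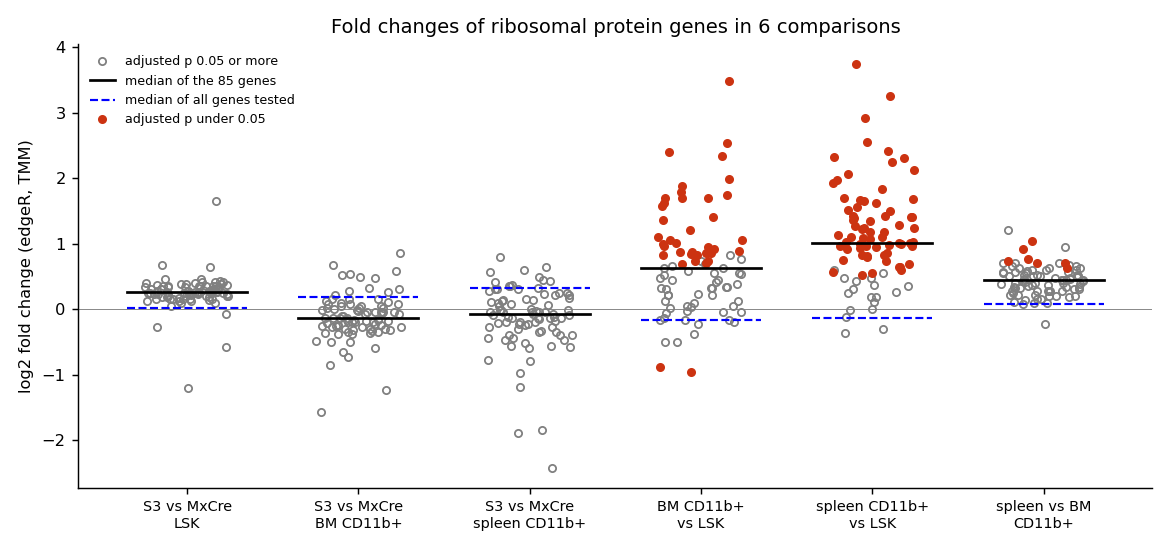
Log2 fold changes (vertical axis, edgeR with TMM scaling) of the 85 tested ribosomal protein genes in 6 comparisons, one point per gene. Filled points have an adjusted p under 0.05, solid lines are the medians of the 85 genes and dashed lines those of all genes tested. No member was called in the S3 comparisons (1, 0 and 296 of all 19555 genes higher, and 5, 0 and 523 lower). In the cell type comparisons 36, 67 and 7 members were called higher (5243, 5537 and 1283 of all genes). In the same comparisons 2, 0 and 0 members were called lower (6175, 6183 and 1447 of all genes).

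Members were called between CD11b+ and LSK cells, in comparisons of 7 libraries with 7, whereas the comparisons of genotypes had 2 or 3 libraries a group. With TMM scaling and averaging over genotypes, 36 of 85 members were higher and 2 lower in BM CD11b+ than in LSK cells (26.8% and 31.6% of all genes were called higher and lower), and 67 were higher and 0 lower in spleen CD11b+ cells (28.3% and 31.6%). The medians were 0.63 and 1.01, against −0.17 and −0.14 over all genes. CD11b+ and LSK libraries differed in TMM factor (1.342 to 1.494 in LSK, 0.599 to 1.183 in CD11b+), and with library size alone the medians of all genes moved to −0.99 and −0.90. On that scale 8 members were higher and 31 lower in BM (13.8% and 50.4% of all genes), and 23 higher and 10 lower in spleen (16.3% and 47.9%), with medians of −0.25 and 0.23. Relative to the median of all genes the members' median stood 0.80 higher in BM with TMM and 0.74 with library size, and 1.15 and 1.13 higher in spleen. The absolute direction in BM is therefore set by the scaling, and fewer cells of a type and less RNA per cell cannot be told apart in these bulk libraries.

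Within genotypes, BM CD11b+ cells had 17 members higher and 2 lower than LSK cells in MxCre (16.6% and 20.3% of all genes), 0 and 0 in Ptpn11D61Y/+ (10.8% and 8.84%), and 9 and 1 in S3 libraries (14.4% and 12.7%). Spleen CD11b+ cells had 30 higher in MxCre (19.2% and 22.4% of all genes higher and lower), 5 in Ptpn11D61Y/+ (10.4% and 7.74%) and 12 in S3 libraries (15.8% and 11.6%), and 0 lower in each. With the S3 mouse numbers as a block, the S3 counts were 29 and 1 in BM and 40 and 0 in spleen (12.9% and 16.2% of all genes higher and lower in BM, 13.8% and 14.7% in spleen), but the deviations of LSK libraries were close to uncorrelated with those of the CD11b+ libraries of the same number (r from −0.096 to 0.0865). In BM, leaving out LSK MxCre 1 or 2, BM MxCre 2, LSK Ptpn11D61Y/+ 1 or 2, or BM Ptpn11D61Y/+ 1 brought the members called from 38 to between 22 and 25, where 47.1% to 54.4% of all genes were called in either direction. Without BM MxCre 1, spleen MxCre 1 and BM S3 815, 22 members were higher and 2 lower in BM (26.5% and 32.7% of all genes), and all 22 were among the 36.

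Differences within the family were smaller in number. To test differences within the family, the libraries were also scaled by their summed ribosomal protein counts, a choice made after seeing the data. Then 16 members were higher and 13 lower in BM (13.8% and 36.1% of all genes), and 16 higher and 14 lower in spleen (12% and 44.8%). In BM 8 members were higher under all 3 scalings (12.9% of all genes were, a larger share than among the members): the 60S proteins Rpl37a and Rpl41, the 40S proteins Rps9 and Rps29, the stalk protein Rplp2, and the low-count Rpl3l, Rpl39l and Rps27rt. Rpl4 and Rpl15, both 60S proteins, were lower under all 3 (31.1% of all genes). In spleen 16 were higher under all 3, the 8 of BM among them, and 0 lower (12% and 31.6% of all genes).

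Rps9, a 40S protein, had log2 CPM of 9.97 to 10.36 in LSK libraries with TMM scaling. In BM CD11b+ libraries it had 13.11 and 12.52 in MxCre, 10.99 and 10.75 in Ptpn11D61Y/+, and 11.84, 13.22 and 10.41 in S3 540, 815 and 640, all above every LSK library. The log2 fold change was 1.88 ± 0.444 (SE, adjusted p = 0.00211 by edgeR) in BM and 2.32 ± 0.452 (adjusted p = 0.000454) in spleen, where S3 640 overlapped the LSK range at 10.22. Rplp2 had 9.12 to 9.64 in LSK libraries. In BM CD11b+ libraries it had 12.62 and 12.45 in MxCre, 10.41 and 9.78 in Ptpn11D61Y/+, and 11.39, 13.35 and 9.45 in S3. The change was 2.33 ± 0.555 (adjusted p = 0.00221 by edgeR), and S3 640 again fell within the LSK range. Rpl37a rose by 2.40 ± 0.533 in BM and 2.55 ± 0.536 in spleen, and Rps29 by 1.74 ± 0.381 and 2.13 ± 0.387. The partner of Rplp2 in the stalk, Rplp1, rose by 1.70 ± 0.459 and 1.97 ± 0.463. With library size alone Rps9 had 0.97 and 1.53, both called, and Rplp1 had 0.79 in BM (adjusted p = 0.0927 by edgeR, not called) and 1.2 in spleen (adjusted p = 0.0155). Rplp0, to which Rplp1 and Rplp2 bind, had 0.22 ± 0.22 (adjusted p = 0.4 by edgeR) and 0.55 ± 0.22 (adjusted p = 0.0414), and −0.64 (called lower) and −0.22 (not called) with library size alone.

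Rpl4 ran the opposite way. It had log2 CPM of 10.75 to 11.33 in LSK libraries. In BM CD11b+ libraries it had 8.43 and 9.93 in MxCre, 10.55 and 10.59 in Ptpn11D61Y/+, and 10.53, 9.10 and 10.58 in S3, all below every LSK library. The log2 fold change was −0.88 ± 0.263 (adjusted p = 0.00969 by edgeR) in BM and −0.37 ± 0.261 (adjusted p = 0.23) in spleen. Rpl15 had 8.50 to 9.04 in LSK libraries, and 6.86 and 7.46 in MxCre, 8.10 and 8.31 in Ptpn11D61Y/+, and 8.07, 6.54 and 8.18 in S3 BM CD11b+ libraries, again below every LSK library (−0.96 ± 0.231, adjusted p = 0.00236 by edgeR). In its share of the family, Rpl4 took 3.53% to 3.77% in LSK, 0.33% to 3.05% in BM and 0.569% to 3.18% in spleen CD11b+ libraries. Rps9 took 1.90% to 2.18%, 2.70% to 8.46% and 2.62% to 7.59% of it. With family scaling Rpl6, Rps7, Rpl3, Rps6 and Rpl10a were lower as well in both tissues. Rps6 is the 40S protein that S6 kinase phosphorylates.

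The make-up of the family was nearly constant among LSK libraries and varied widely among CD11b+ libraries. For each library, the log2 ratio of each member's share to the mean of the LSK libraries was taken over the 84 members with at least 10 counts in every library. The SD of this ratio over members was 0.09 to 0.22 in LSK libraries. In BM CD11b+ libraries it was 1.32 and 0.92 in MxCre, 0.50 and 0.44 in Ptpn11D61Y/+, and 0.63, 1.28 and 0.28 in S3 540, 815 and 640. In spleen it was 1.18 and 0.95 in MxCre, 0.45 and 0.57 in Ptpn11D61Y/+, and 0.54, 0.91 and 0.28 in S3. The CD11b+ libraries numbered 640 lay closest to LSK in both tissues, and the MxCre libraries and those numbered 815 farthest. The 3 libraries with the fewest detected genes were those with the largest SD. MxCre and S3 values overlapped in BM, whereas in spleen all 3 S3 values lay below both MxCre values.

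**Figure D3:**
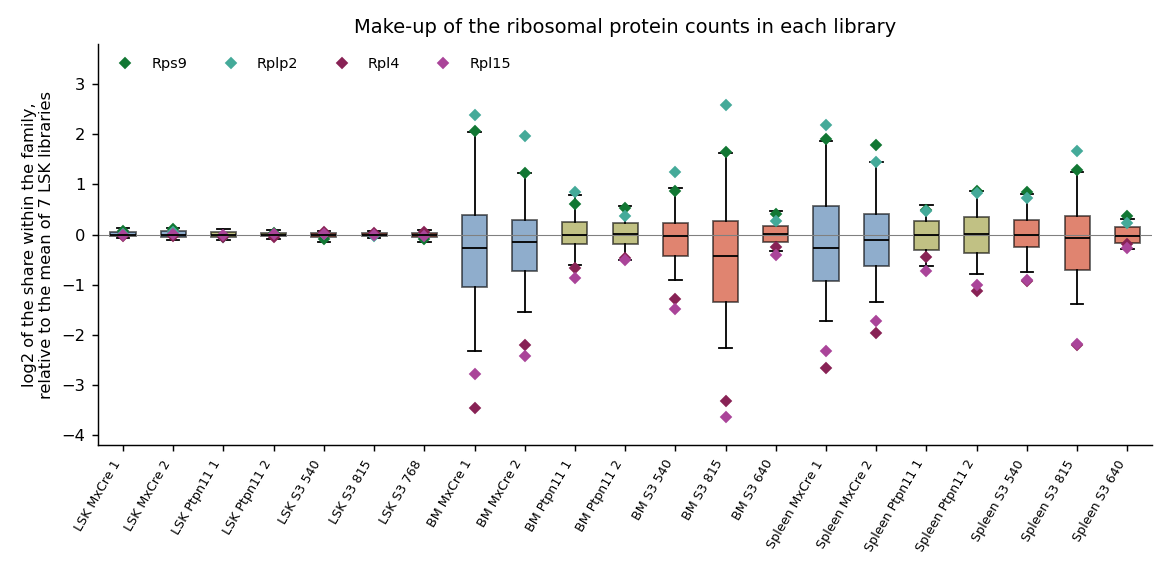
Log2 ratio of each member's share of the family to its mean over the 7 LSK libraries (vertical axis), for each library. Boxes show quartiles and medians over 84 genes, whiskers the 5th to 95th percentile, and diamonds 4 named genes. Rps9 and Rplp2 lie above 0 and Rpl4 and Rpl15 below 0 in all 14 CD11b+ libraries, and boxes are narrow in LSK libraries.

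The same ordering of genes recurred and went with coding length. In BM MxCre 1, the median log2 ratio was 1.02 for the 19 members with under 350 coding bases, −0.34 for the 41 with 350 to 600, and −0.99 for the 24 with over 600. The order short, middle, long held in all 14 CD11b+ libraries, down to 0.09, −0.03 and −0.09 in spleen S3 640, whereas in LSK libraries these medians stayed within −0.04 to 0.09. Across the 84 genes Pearson's r of the ratio with log2 coding length was −0.21 to −0.53 in 13 CD11b+ libraries and −0.05 in spleen S3 640. For GC content of the transcript it was −0.15 to 0.25 in these libraries. These are descriptions over genes that share a library, and genes are not independent replicates. Coding length does not order every gene: Rps9, which was relatively high, and Rps7, which was relatively low, both have 582 coding bases. Whether transcript length, RNA integrity or cell make-up has a part in it was not tested.

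**Figure D4:**
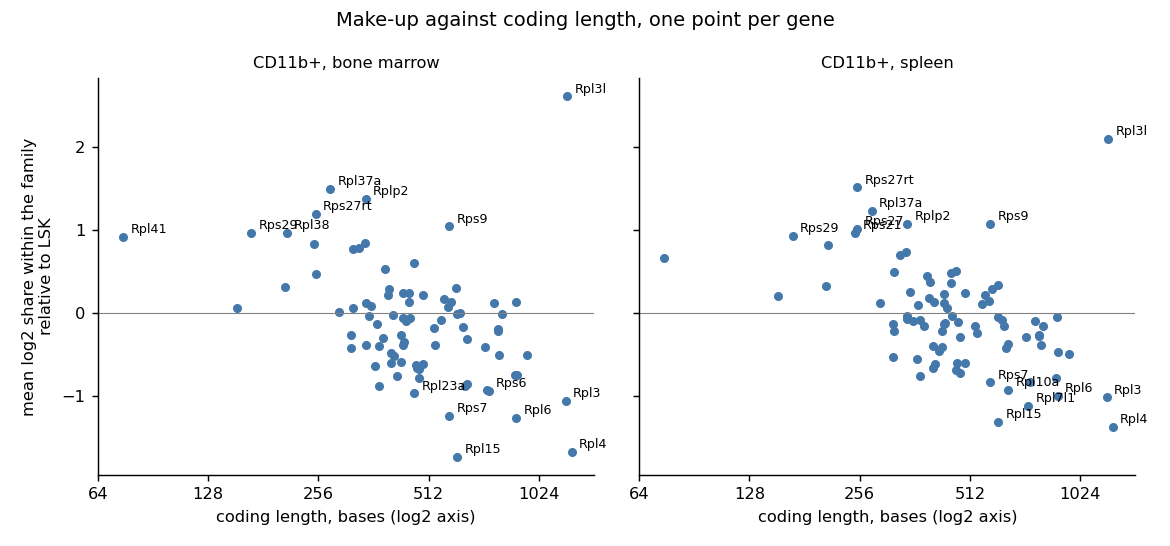
Mean log2 share within the family relative to LSK (vertical axis) against coding length in bases (horizontal log2 axis) for 84 genes in BM and spleen CD11b+ libraries. Rpl41, Rps29, Rpl38 and Rpl37a, with short coding sequences, lie above 0, and Rpl4, Rpl3 and Rpl6, with long ones, lie below 0.

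The mature neutrophil markers summed to 36900 to 117000 CPM in BM, 5480 to 86500 CPM in spleen CD11b+ and 500 to 4800 CPM in LSK libraries, led by S100a9 in each. Of 12 such markers 12, of 14 erythroid markers 12, of 10 monocyte markers 10 and of 10 T cell markers 8 were higher in BM CD11b+ than in LSK cells. Of 10 B cell markers 8 were higher and 1 lower there, and of 12 stem and progenitor markers 10 were lower. Summed B cell markers, by contrast, ran from 2930 to 12100 CPM in BM CD11b+ and from 7920 to 61400 CPM in LSK libraries. In spleen CD11b+ cells the mature neutrophil and monocyte counts were again 12 and 10 higher, and of 14 erythroid markers 5 were higher and 2 lower, of 10 B cell markers 7 and 2, of 10 T cell markers 7 and 1, of 7 immature neutrophil markers 1 and 5, and of 12 stem and progenitor markers 1 and 10. Their part in the ribosomal protein values was not tested.

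In spleen CD11b+ cells 84 of 85 members had a positive log2 fold change over BM CD11b+ cells, as did 54.2% of all genes. The median was 0.45 against 0.07 over all genes, but few passed. In 0 members did every spleen library exceed every BM library, as in 0.414% of all genes. The median was 0.26 without spleen S3 815 and 0.29 without spleen Ptpn11D61Y/+ 2. By edgeR 7 were higher and 0 lower (6.56% and 7.4% of all genes), a share near the background. They included the 40S proteins Rps27 (1.04 ± 0.301 SE, adjusted p = 0.0302 by edgeR), Rps23 (0.73 ± 0.219, adjusted p = 0.035) and Rps7 (0.70 ± 0.217, adjusted p = 0.0413), and the 60S proteins Rpl10 (0.76 ± 0.188, adjusted p = 0.0149), Rpl30 (0.70 ± 0.22, adjusted p = 0.0431) and Rpl23 (0.63 ± 0.2, adjusted p = 0.0448). Rps27 had a median of 9.56 log2 CPM with a range of 8.98 to 10.41 in BM and a median of 10.88 with a range of 8.32 to 11.60 in spleen, so the groups overlapped. No member was called within MxCre, Ptpn11D61Y/+ or S3 libraries (0.915%, 3.69% and 0.0563% of all genes), and 0 in a fit on the CD11b+ libraries alone or with family scaling. The fits within genotypes did not use the mouse number, although deviations of S3 BM and spleen libraries of the same number correlated (r of 0.108 to 0.407). With the mouse or replicate number as a block, averaged over genotypes, 8 members were higher, the 7 among them. The 7 calls fell to 0 without either BM Ptpn11D61Y/+ library (6.26% and 7.05% of all genes called in either direction), to between 1 and 4 without any single LSK or spleen library other than S3 640, or without BM MxCre 1 (7.39% to 18.3%), and rose to 21 without spleen S3 640 (18.3%). Without the 3 libraries with few detected genes 2 were higher (11.1% of all genes). Markers of other cells moved with this comparison: 13 of 14 erythroid, 10 of 12 mature neutrophil and 6 of 7 immature neutrophil markers were lower in spleen and none higher, and 4 of 7 dendritic cell markers were higher and 1 lower. Erythroid markers summed to 17600 to 162000 CPM in BM, led by Hba-a1, and to 711 to 32300 CPM in spleen CD11b+ libraries, led by Hbb-bs. Their part in the ribosomal protein values was not tested.

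The paralogue pairs differed in level and in pattern. Rpl3l, which is 75.3% identical to Rpl3 over 1200 coding bases, had log2 CPM of −2.47 to −0.22 in LSK libraries. It had 4.27 and 2.52 in MxCre, 1.89 and 1.44 in Ptpn11D61Y/+, and 2.30, 2.80 and −0.24 in S3 BM CD11b+ libraries, and 3.90 and 4.36, −1.38 and 1.06, and 2.21, 3.16 and 0.28 in the spleen ones. The log2 fold changes over LSK were 3.48 ± 0.602 (adjusted p = 0.000181 by edgeR) and 3.25 ± 0.596 (adjusted p = 0.000274). Its counts were 21 to 102 in LSK and 22 to 942 in CD11b+ libraries. Msrb1, a selenoprotein gene that starts 499 bases beyond the end of Rpl3l on the same strand, had 2815 to 6414 and 12719 to 167654 counts. Both genes were highest in spleen MxCre 2, and whether reads from Msrb1 were counted for Rpl3l was not tested. Rpl3 itself had −0.38 ± 0.192 (adjusted p = 0.0981 by edgeR) in BM and −0.01 ± 0.192 (adjusted p = 0.965) in spleen, but −1.24 and −0.78, both called lower, with library size alone.

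Rps27 and Rps27l, 79.3% identical over 217 bases, also differed. With TMM scaling Rps27 rose over LSK by 1.21 ± 0.302 in BM (adjusted p = 0.0031 by edgeR) and 2.25 ± 0.313 in spleen (adjusted p = 2.36e-05, the smallest of any member there), and Rps27l had 0.31 ± 0.202 (adjusted p = 0.194) and 0.52 ± 0.202 (adjusted p = 0.0352). With library size alone Rps27 had 0.34 (not called) and 1.47 (called), and Rps27l −0.56 (called lower) and −0.25 (not called). Rpl36a and Rpl36al, 87.7% identical, had 0.83 ± 0.353 (adjusted p = 0.0536 by edgeR) and 1.58 ± 0.37 (adjusted p = 0.00198) in BM, and with library size alone Rpl36al had 0.67 there (adjusted p = 0.0674). Rpl22, whose product binds RNA and represses Rpl22l1, had 0.44 ± 0.345 (adjusted p = 0.285 by edgeR) in BM and 1.0 ± 0.347 (adjusted p = 0.0213) in spleen, and Rpl22l1 had 0.02 ± 0.209 and 0.47 ± 0.21 (adjusted p = 0.0615). With library size alone Rpl22 had 0.22 in spleen (adjusted p = 0.53 by edgeR), and Rpl22l1 had −0.85 in BM (adjusted p = 0.000613). Rpl7 rose in both tissues (0.74 ± 0.296 and 0.93 ± 0.297, adjusted p = 0.042 and 0.0129 by edgeR; −0.15 and 0.15, neither called, with library size alone) while Rpl7l1 had −0.23 ± 0.14 and −0.12 ± 0.14 (adjusted p = 0.17 and 0.463; −1.07 and −0.88, both called lower, with library size alone). Rpl39l rose on the fitted scale by 2.53 ± 0.71 and 3.74 ± 0.743, from 2 to 41 counts in LSK to 4 to 157 counts in CD11b+ libraries. Rps4x, the X-linked 40S gene, had 0.54 ± 0.303 (adjusted p = 0.134 by edgeR) in BM and 0.81 ± 0.304 (adjusted p = 0.0301) in spleen, where it had 0.04 with library size alone (adjusted p = 0.906).

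**Figure D5:**
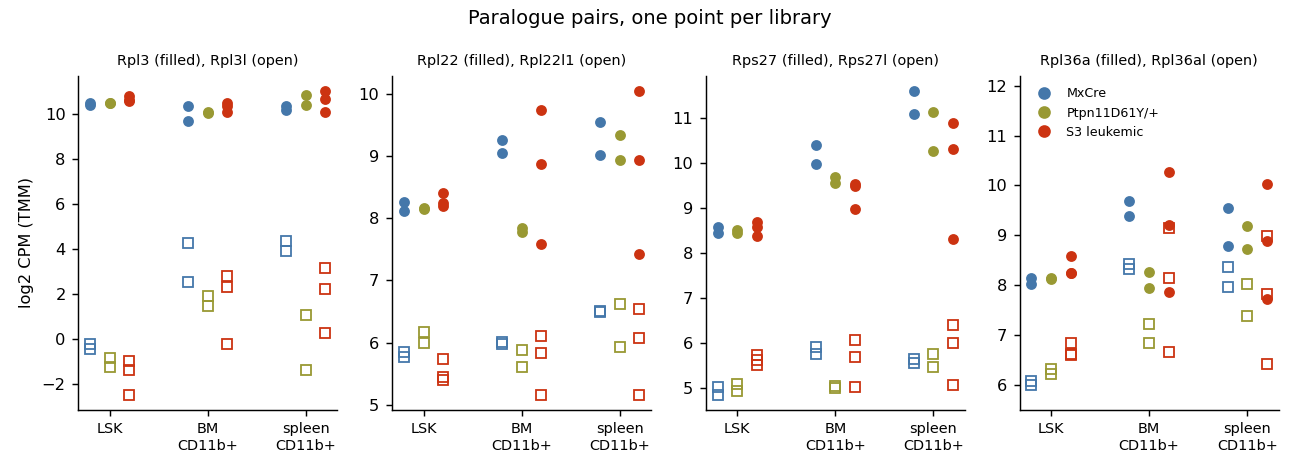
Log2 CPM (vertical axis, TMM scaling) of 4 paralogue pairs in each library by cell type, with filled circles for the main gene, open squares for its relative and colours for genotype. Rpl3l spans −2.47 to 4.36 while Rpl3 stays within 9.67 to 11, and Rps27 is higher in CD11b+ than in LSK libraries except in spleen S3 640.

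Related gene lists were read from the same fit, where 26.8% of all genes were called higher and 31.6% lower in BM and 28.3% and 31.6% in spleen CD11b+ than in LSK cells (13.8% and 50.4%, and 16.3% and 47.9%, with library size alone). Ribosome biogenesis genes were lower in CD11b+ cells: with TMM scaling 31 of 40 were lower and 0 higher in BM CD11b+ than in LSK cells, and 26 lower and 1 higher in spleen, with medians of −1.24 and −1.01 (39 and 38 lower, 0 higher with library size alone). They included Nop58, a core protein of box C/D snoRNPs (−2.16 ± 0.318 SE, adjusted p = 4.53e-05 by edgeR), Nat10, the 18S rRNA acetyltransferase (−2.60 ± 0.269, adjusted p = 1.57e-06), and Polr1b, a subunit of RNA polymerase I (−2.84 ± 0.363, adjusted p = 1.2e-05). Myc fell in BM by 3.42 on the log2 scale ± 0.325 (adjusted p = 6.94e-07 by edgeR) and Mxd1, which encodes a MYC antagonist, rose by 3.91 ± 0.403 (adjusted p = 1.5e-06). With library size alone Myc had −4.22 and Mxd1 3.05.

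Translation factors were split with TMM scaling, with 10 higher and 9 lower of 31 in BM and 10 and 7 in spleen, but not with library size alone (0 and 20 in BM, 2 and 19 in spleen). Eif3k and Eif3f, subunits of initiation factor eIF3, rose by 1.22 ± 0.253 and 1.19 ± 0.293 in BM (0.34 and 0.3, neither called, with library size alone), while Eif4g1 fell by 1.61 ± 0.341 and Eef1a1, the main elongation factor, fell by 1.24 ± 0.305. Of 9 other TOP transcripts, 6 were higher and 1 lower in both tissues (2 and 3 in BM, 5 and 2 in spleen, with library size alone). Pfdn5, a prefoldin subunit, rose by 2.37 ± 0.423 in BM and Tpt1, the translationally controlled tumor protein, by 0.89 ± 0.224 (1.46 and 0.03 with library size alone), while Hnrnpa1 fell by 1.07 ± 0.219. Values of only part of the list of ribosomal proteins outside the symbol rule are given, so no direction of that list can be read from them. Fau, which encodes the 40S protein eS30 fused to a ubiquitin-like protein, rose by 1.97 ± 0.358 in BM and 2.64 ± 0.368 in spleen (adjusted p = 0.000273 and 2.44e-05 by edgeR), and passed with library size alone too. Rack1 rose in spleen by 0.58 ± 0.239 (adjusted p = 0.0466 by edgeR) but had −0.19 with library size alone.

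Of 23 regulators of ribosomal protein synthesis, 6 were higher and 13 lower in BM CD11b+ than in LSK cells and 6 and 11 in spleen (3 and 16, and 3 and 15, with library size alone), so that the share called higher in BM was near the 26.8% of all genes. The share called lower in BM was larger than among all genes (6175 of 19555), also with library size alone. Of 10 genes of the 5S RNP and p53 checkpoint, 4 were higher and 2 lower in BM and 5 and 2 in spleen, but with library size alone the balance turned, with 1 higher and 5 lower in BM and 2 and 3 in spleen. Trp53 itself fell by 2.21 ± 0.346 in BM (adjusted p = 7.64e-05 by edgeR), and its target Cdkn1a, the p21 gene, rose by 1.23 ± 0.273 (adjusted p = 0.00136, and 0.42, not called, with library size alone). In spleen CD11b+ cells of S3 mice Cdkn1a was lower than in MxCre (−2.23 ± 0.449, adjusted p = 0.0143 by edgeR), as were Bbc3 (−1.86 ± 0.447, adjusted p = 0.0299) and Mxd1 (−2.43 ± 0.593, adjusted p = 0.0322). These 3 calls were lost with library size alone, where 0 genes of either list were called. On that scale the median of the checkpoint list moved from 0.11 to 0.56 and that of the regulators from 0.46 to 1. The loss of these calls does not show that the 3 changes were absent. In the same comparison with TMM scaling, 2 of 40 biogenesis genes were higher in S3, Tsr1 (3.16 ± 0.767, adjusted p = 0.0312 by edgeR) and Bop1 (1.03 ± 0.282, adjusted p = 0.0497), against 1.51% of all genes called higher. With library size alone 5 of the 40 were higher, as were 3 of 31 translation factors, of which 0 were called with TMM scaling (3.38% of all genes were higher).

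Members followed each other closely with TMM scaling. Over the 21 libraries, Pearson's r of a member's log2 CPM with the mean of the others had a median of 0.93 and was over 0.5 for 73 of 85. It was below 0 for 4: Rpl4 (−0.37), Rpl15 (−0.35), Rpl6 (−0.12) and Rpl7l1 (−0.01). The genes outside the family most like its mean were Naca (r = 0.977), a subunit of the nascent polypeptide-associated complex, Mcts1 (0.963), Btf3 (0.962), the partner of Naca, Smim11 (0.962), Ascc1 (0.959), Apopt1 (0.958), Eif3f (0.956), Bola2 (0.955), Mdp1 (0.954) and Osgep (0.951). The libraries share cell types and scaling factors, and the part of these in each r was not tested.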

How the data were processed

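RNA-seq was performed on 21 mouse libraries, and the authors deposited 1 table of raw counts per Ensembl gene for each, without normalization. RNA was isolated with the RNeasy Micro kit, libraries were prepared with the TruSeq Stranded mRNA kit, and paired-end reads were trimmed (Trim Galore 0.6.5) and aligned (STAR 2.5.3a) to mm10, per the submitters' processing notes and the study's methods. The counting program, annotation release, use of strand and treatment of reads that align to several places are not given in the sources used here. This bears on ribosomal protein genes, because most have near-identical copies. Symbols matched 45143 gene identifiers, and 563 had none.

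Counts were tested with edgeR 4.0.16 (glmQLFit with robust dispersions, glmQLFTest) with 1 coefficient for each of 9 groups of libraries, TMM factors, a filter on low counts (filterByExpr, minimum count 10, minimum total 15) and Benjamini-Hochberg adjustment over 19555 genes at 0.05. All adjusted p-values are from this test unless another tool is named. Log2 CPM values used a prior count of 2. Standard errors (SE) were derived from the test, as the absolute log2 fold change divided by the square root of its F statistic. They therefore carry no evidence beyond its p-value. Depth per library ran from 34992610 to 104509425 counts. The p-values rest on the spread between the 2 or 3 libraries of a group, pooled over all groups of the fit and moderated across genes. Alternatives used other scaling factors, filters, libraries and tools (DESeq2 1.42.0, limma 3.58.1). The fit was also run on simulated data, but the outcome is not given here and no result above rests on it. Copies were found with BLAST 2.17.0+. S3 mouse numbers come from the labels, but libraries of a number need not share a mouse: correlations of deviations between BM and spleen CD11b+ libraries were 0.108 (540), 0.333 (640) and 0.407 (815), and those with LSK lay between −0.096 and 0.0865. Named genes were paralogue pairs, the 10 largest rises and falls among members called, the 5 highest and lowest per-length levels, members with roles outside the ribosome or in marrow disease, up to 6 genes of each related list and the 10 genes most like the family's mean. Members and lists were chosen with earlier results of these data known. For RefSeq start windows, 66 of 86 genes matched. Values of some single genes that the counts include are not reported here.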

Additional observations from a re-analysis of the deposited data

How the results depend on the processing

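For S3 against MxCre, no member was called in LSK cells under any setting of the fit over all libraries, and 8 were called in the fit on only the libraries compared. In spleen CD11b+ cells 1 was called lower with at least 10 counts in every library, 1 with limma-voom and 2 with DESeq2 (5.44%, 3.91% and 7.39% of all genes lower). The median of BM CD11b+ against LSK cells turned to −0.25 with library size alone and −0.09 when scaled by the summed count of members, and that of spleen CD11b+ against LSK cells to −0.08 with the latter, a scaling that by its construction brings the members' median near 0. For the counts that follow against LSK cells, the shares of all genes are given with these comparisons above. In spleen CD11b+ cells 33 members were called with library size alone, 23 higher and 10 lower. With family scaling 30 were called there, 16 higher and 14 lower, against 67 higher and 0 lower with TMM scaling. The members called in BM were 24 without the 3 libraries with few detected genes, 22 higher and 2 lower. For spleen against BM CD11b+ cells they were 12 with library size alone, 3 with no filter, 2 without the 3 libraries with few detected genes, and 0 with family scaling or with only the libraries compared, all higher (6.15%, 3.6%, 11.1%, 1.64% and 2.38% of all genes higher). The cause of these changes was not tested. Leaving out each library in turn gave 0 to 0 (LSK), 0 to 1 (BM) and 0 to 1 (spleen) members called for S3 against MxCre, 22 to 48 for BM and 51 to 71 for spleen CD11b+ against LSK cells, and 0 to 21 for spleen against BM. Over the same fits 0% to 0.0618%, 0% to 9.75%, 1.37% to 8.93%, 47.1% to 63%, 49.6% to 63.2% and 6.26% to 21.8% of all genes were called. With library size alone the share of higher calls among all genes called moved from 45.9% to 21.5% for BM and from 47.2% to 25.4% for spleen against LSK cells, and from 36.1% to 72.1% for S3 in spleen.

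With the replicate number as a block over the control libraries, 6 members were lower in Ptpn11D61Y/+ than in MxCre BM CD11b+ cells (Rpl37a, Rpl38, Rps21, Rpl22, Rplp2 and Rplp1) and 1, Rpl3l, in spleen (1.4% and 3.27% of all genes were lower, 2.83% and 3.15% higher). Control libraries share only a number: correlations of their deviations ran from −0.173 to 0.0585. With the mouse or replicate number as a block, 52 members were called in BM against LSK, 70 in spleen against LSK and 8 in spleen against BM CD11b+ cells (24.4% higher and 33.1% lower, 26.3% and 33.5%, and 6.05% and 5.57% of all genes). Within MxCre libraries the block gave 40 higher and 2 lower in BM (15.9% and 20.4% of all genes) and 49 higher in spleen (19%), and within Ptpn11D61Y/+ libraries 1 and 26 higher (12.1% and 11.8%).

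The lowest counts were those of Rpl39l (2 to 157 per library), Rpl24 (17 to 161) and, in LSK libraries, Rpl3l (21 to 102), so that their values are the least precise as far as counting error goes.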
